A study of Homo sapiens with 6 samples.

Results

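ALB, AFP, AFM, GC, TTR and RBP4 were examined as the albumin gene family and its partner carriers, in Hep-G2 cells with and without depletion of calmegin. They are 6 of the 58735 genes in the table and were found by gene name. They were chosen by their log2 fold changes between these same groups, which were already known, so every value of theirs in that contrast is a description without a test. Hep-G2 is an established human liver cancer line that is used as a source of hepatocyte-type cells. The control cells (sh-NC, genotype WT, n = 3 libraries) carried a hairpin that served as the negative control, and the depleted cells (sh-CLGN, genotype CLGN knock down, n = 3 libraries) a hairpin against CLGN. Both groups were made, per the study's methods, by lentiviral transduction and puromycin selection, and they share the batch label 0DAY. Each group rests on 1 hairpin, so the loss of CLGN and other effects of the hairpin or the culture cannot be told apart. No label says that libraries came from separate cultures, so p-values measure only the spread between these libraries, which may be technical.

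The serum albumin family arose by duplication of an ancestral gene, and its proteins are built of repeated domains held by many disulfide bonds that form in the endoplasmic reticulum. ALB encodes albumin, the main protein of plasma and a carrier of fatty acids, bilirubin and hormones. AFP encodes alpha-fetoprotein, its fetal counterpart, which is silenced in the liver after birth and returns in many liver cancers. AFM encodes afamin, a carrier of vitamin E and of Wnt proteins, and GC encodes the vitamin D binding protein. TTR (transthyretin) and RBP4 (retinol binding protein) are unrelated to albumin by descent. They are secreted by hepatocytes and travel in plasma as a complex, in which RBP4 holds retinol and TTR can hold thyroxine. Calmegin, the product of CLGN, is a relative of calnexin that assists protein folding in the same compartment.

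ALB (GRCh38 chromosome 4, 73397114 to 73421412, plus strand), AFP (73431138 to 73456174) and AFM (73481683 to 73504001) lie head to tail, with 9725 bases between ALB and AFP and 25508 between AFP and AFM. GC (71741693 to 71804041) lies on the minus strand, about 1593 kilobases before ALB, with 4 other protein-coding genes in between. The positions thus describe a tandem of 3 genes and a more distant relative. TTR is on chromosome 18 (31557010 to 31599021, plus strand) and RBP4 on chromosome 10 (93591687 to 93601744, minus strand). The sequence upstream of each start in the tandem is shown because ALB and AFP differed between the groups in opposite directions although they are neighbours. The sequences come from RefSeq (GRCh38.p14) and run 5′ to 3′ over the 250 bases before the RefSeq start, which for all 3 genes lies inside the longer gene span that the table gives. Capitals mark matches, on either strand, to TGTTTNC (FOXA factors), TTGCNNAA (C/EBP factors), CAAAGTC (part of the HNF4 consensus) or TATAAA (the TATA box).
ALB, chr4:73404037-73404286, plus strand: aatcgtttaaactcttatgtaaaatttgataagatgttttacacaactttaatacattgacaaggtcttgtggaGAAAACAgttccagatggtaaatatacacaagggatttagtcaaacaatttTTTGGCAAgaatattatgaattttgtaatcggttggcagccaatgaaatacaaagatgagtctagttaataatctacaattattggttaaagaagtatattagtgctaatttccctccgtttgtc
AFP, chr4:73435971-73436220, plus strand: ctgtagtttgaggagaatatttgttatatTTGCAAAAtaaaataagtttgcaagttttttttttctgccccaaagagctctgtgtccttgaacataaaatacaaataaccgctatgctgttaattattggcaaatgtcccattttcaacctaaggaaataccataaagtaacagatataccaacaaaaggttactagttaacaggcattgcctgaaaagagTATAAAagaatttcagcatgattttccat
AFM, chr4:73481495-73481744, plus strand: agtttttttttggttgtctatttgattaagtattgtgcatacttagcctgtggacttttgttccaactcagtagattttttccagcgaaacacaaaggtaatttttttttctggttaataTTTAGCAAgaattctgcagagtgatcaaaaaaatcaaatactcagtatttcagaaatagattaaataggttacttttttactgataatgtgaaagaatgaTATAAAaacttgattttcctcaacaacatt

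The 3 tandem promoters each held 1 match to the C/EBP letters, which began 125 bases before the start in ALB, 221 in AFP and 130 in AFM. Over all 34943 promoter windows of this length, 9.06% held the C/EBP letters. AFP and AFM also held TATAAA, at 29 and 30 bases, which 10.8% of windows held, while these letters were not in the ALB window. The FOXA letters were found only in ALB among the 3, against 15.5% of windows, and CAAAGTC in none of them, against 2.91%. The matches of different motifs did not overlap. RefSeq lists 3 windows for RBP4, of which 1 held the C/EBP letters and 2 held TATAAA. GC and TTR had no window in the table. A match of letters is a description, not a bound site.

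RNA of the 6 libraries was given as FPKM, that is fragment counts scaled to the length of the gene in kilobases and to the size of the library. The values rest on 14955816 to 16244639 reads per sh-NC library and 15086344 to 15675776 reads per sh-CLGN library. The library size in the authors' scaling was 0.933 to 0.953 of this total in sh-NC and 1.07 to 1.08 of it in sh-CLGN, so FPKM and unscaled read shares give different sizes for the same difference. Genes with at least 1 read numbered 23578 to 23793 per library in sh-NC against 26814 to 27006 in sh-CLGN. Reads carried no molecular identifiers, so a level of 3 reads, used as the floor of detection, covers counting error only. CLGN fell from 23.8 ± 2.54 to 8.98 ± 0.453 FPKM (SD, n = 3; limma adjusted p = 8.35e-06), to 37.8% of the control level. The labelled cell type was checked with 12 hepatocyte markers that are not members (some of them return in the lists), and all 12 were above 1 FPKM in every library. Their summed level was 3674 to 3724 FPKM in sh-NC and 3582 to 3850 FPKM in sh-CLGN, where 3 of the markers rose and 7 fell. Over all genes tested, 26.7% were higher and 39.0% lower at adjusted p. Of 8 fibroblast and stellate cell markers 5 were tested and 5 were higher. Of the 5, COL1A1, COL3A1 and LUM were under 1 FPKM in every sh-NC library. They passed the expression filter (at least 1 FPKM in at least 3 libraries) only through sh-CLGN. Their direction was thus fixed by the filter. The sum of the 8 markers was 7.19 to 8.61 FPKM in sh-NC libraries against 48.6 to 50.0 FPKM in the depleted ones. DCN stayed at or under the floor. The sums went from 126 to 135 FPKM to 90.9 to 96.5 FPKM for 5 cholangiocyte markers, from 3.33 to 3.67 FPKM to 2.38 to 2.65 FPKM for 4 endothelial markers, and from 69.9 to 77.7 FPKM to 61.1 to 68.4 FPKM for 5 leukocyte markers. In the cholangiocyte list KRT19 rose by 0.60 and SOX9 fell by 1.32 on the log2 scale. LYZ made up most of the leukocyte sum, at 68.7 to 76.2 FPKM in sh-NC and 60.7 to 67.9 FPKM in sh-CLGN, and PECAM1 most of the endothelial sum. COL1A2 made up most of the fibroblast and stellate cell sum in sh-CLGN, at 38.3 to 39.4 FPKM, against 3.86 to 4.85 FPKM in sh-NC. KRT7, VWF, KDR, CD68 and CD3E of these lists were at or under the floor in every library, while KRT19, SOX9, PECAM1, CD14 and LYZ were above it and passed the expression filter. The part of these shifts in the values that follow was not tested. In bulk RNA, fewer cells of a type and less RNA per cell cannot be told apart.

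Of the 6 genes, 5 had non-overlapping libraries, 2 higher (AFP and TTR) and 3 lower (ALB, GC and RBP4) in sh-CLGN. Over all 13074 genes tested, 70.2% had non-overlapping libraries, and since these genes were chosen on this contrast nothing is read from their count. The 5 passed the expression filter of at least 1 FPKM in at least 3 libraries, and AFM did not.

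In replicates 1, 2 and 3, ALB was expressed at 1934, 2011 and 2076 FPKM for sh-NC and at 1108, 1056 and 1065 FPKM for sh-CLGN. All sh-CLGN libraries were below all sh-NC libraries, and the nearest pair across groups was 1.75-fold apart. The mean went from 2007 ± 70.9 to 1076 ± 27.7 FPKM (SD, n = 3), which is 53.6% of the control level, a difference of -0.90 (SE 0.036) on the log2(FPKM + 1) scale. In order of level among all genes of a library, ALB stood between place 9 and 11 in sh-NC and at place 21 in each sh-CLGN library. Its share of all reads was 0.638% ± 0.0292 in sh-NC and 0.392% ± 0.0113 in sh-CLGN.

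AFP, the gene next to ALB, was higher in sh-CLGN. Its level was 2622, 2598 and 2790 FPKM with the control hairpin and 3943, 3739 and 3664 FPKM with the CLGN hairpin. The lowest sh-CLGN library was 1.31-fold above the highest sh-NC library. The mean went from 2670 ± 105 to 3782 ± 145 FPKM, a ratio of 1.42 and a log2 difference of 0.50 (SE 0.045). AFP was at place 8 in each sh-NC library and at place 7 in each sh-CLGN library, and took 0.820% ± 0.0404 and 1.33% ± 0.0572 of the reads, respectively.

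AFM, the third gene of the tandem, was at the edge of detection. Its reads numbered 10, 7 and 8 with the control hairpin and 6, 8 and 11 with the CLGN hairpin, which correspond to 0.319, 0.214 and 0.230 FPKM and to 0.158, 0.217 and 0.304 FPKM. The groups overlapped, and a difference was not detectable at this depth. The levels within the tandem in sh-NC therefore ran from 0.254 ± 0.0568 FPKM for AFM to 2670 ± 105 FPKM for AFP.

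GC showed the widest separation of the 6 genes. Its level was 40.6, 43.1 and 44.4 FPKM in sh-NC and 8.47, 7.71 and 6.30 FPKM in sh-CLGN, from 1348 to 1636 and from 242 to 342 reads. The nearest libraries of the groups were 4.79-fold apart. The mean went from 42.7 ± 1.94 to 7.49 ± 1.10 FPKM, 5.70-fold lower. Among the depleted libraries GC varied more than the other genes above the filter, with a coefficient of variation of 14.7%. On the log2(FPKM + 1) scale, which pulls low values toward 0, the difference was -2.37 (SE 0.117), and the log2 ratio of the mean FPKM was -2.51.

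TTR and RBP4, whose proteins circulate together, differed in opposite directions. TTR was at 198, 169 and 180 FPKM in sh-NC and at 284, 276 and 260 FPKM in sh-CLGN. No library of one group entered the range of the other, and the mean went from 182 ± 14.9 to 274 ± 12.1 FPKM (50.0% higher, log2 difference 0.58, SE 0.077). RBP4 was at 598, 530 and 493 FPKM in sh-NC and at 418, 402 and 413 FPKM in sh-CLGN. Its sh-NC libraries were the most scattered of the 5 genes above the filter, with a coefficient of variation of 9.90%, against a median of 5.68% over the 340 genes with a mean of at least 100 FPKM. The mean went from 540.4 ± 53.5 to 411 ± 8.32 FPKM (ratio 0.761, log2 difference -0.39, SE 0.083). The RBP4 difference was the smallest of the 5 and depended on the scaling, since quantile normalization brought it to -0.035 with overlapping libraries. Its transcripts have the highest GC content of the 6 genes, 54.4%, against 37.0% to 47.3% for the others, and with the GC trend of each library removed the RBP4 difference was -0.19.

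**Figure D1:**
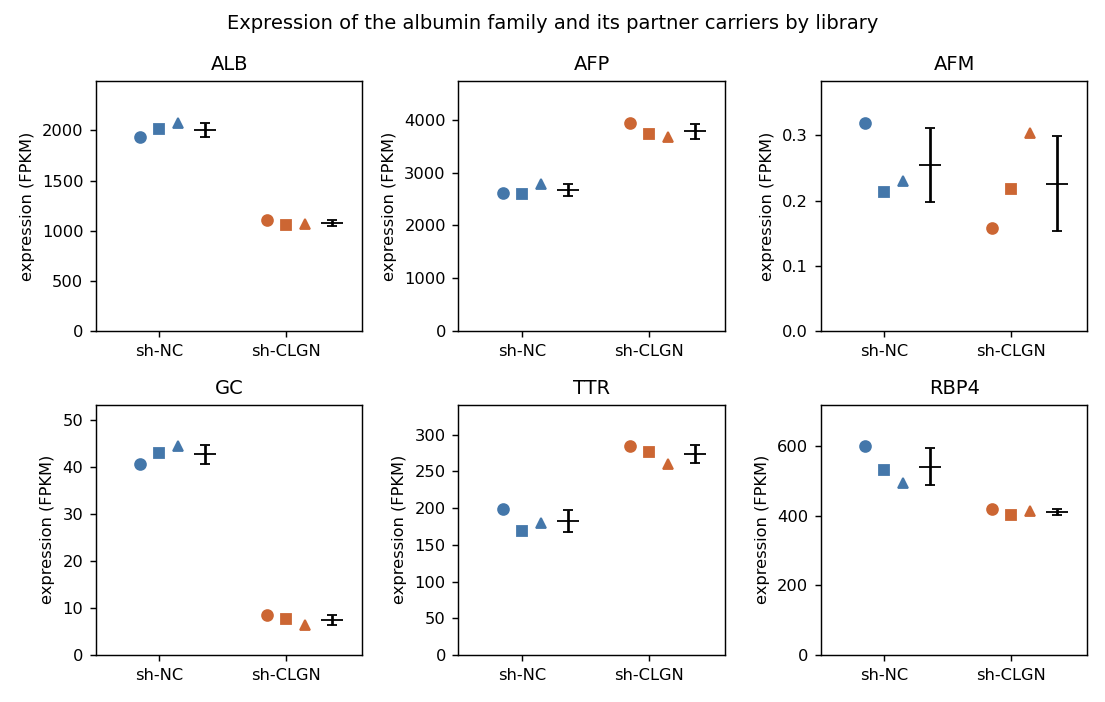
Expression of each gene in FPKM (vertical axes, from 0) by group, with replicates 1, 2 and 3 as circle, square and triangle and the mean ± SD (n = 3) in black. ALB, GC and RBP4 lie lower and AFP and TTR higher in every sh-CLGN library, and AFM overlaps at 0.158 to 0.319 FPKM.

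A ratio within a library does not change when all values of that library are multiplied by 1 factor, though it can change under quantile normalization or GC correction. The ratio of AFP to ALB FPKM lay between 1.29 and 1.36 in the control and between 3.44 and 3.56 in the depleted libraries, with means of 1.33 ± 0.0339 and 3.51 ± 0.0641 (SD, n = 3), 2.64-fold apart. Both components contributed to it, since ALB was lower and AFP higher. The sum of the 2 levels was 4677 ± 166 FPKM in sh-NC and 4858 ± 170 FPKM in sh-CLGN, and the ranges of 4556 to 4866 and 4729 to 5051 FPKM overlapped. As a share of unscaled reads, however, both genes together took 1.41% to 1.53% with the control hairpin against 1.66% to 1.80% with the CLGN hairpin, without overlap, so the sums overlapped in FPKM and did not as shares of reads. The ratio of TTR to RBP4 lay between 0.319 and 0.365 in the control and between 0.630 and 0.688 in the depleted libraries, a 1.97-fold difference of the means. These ratios come from the contrast that chose the genes and were not tested.

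**Figure D2:**
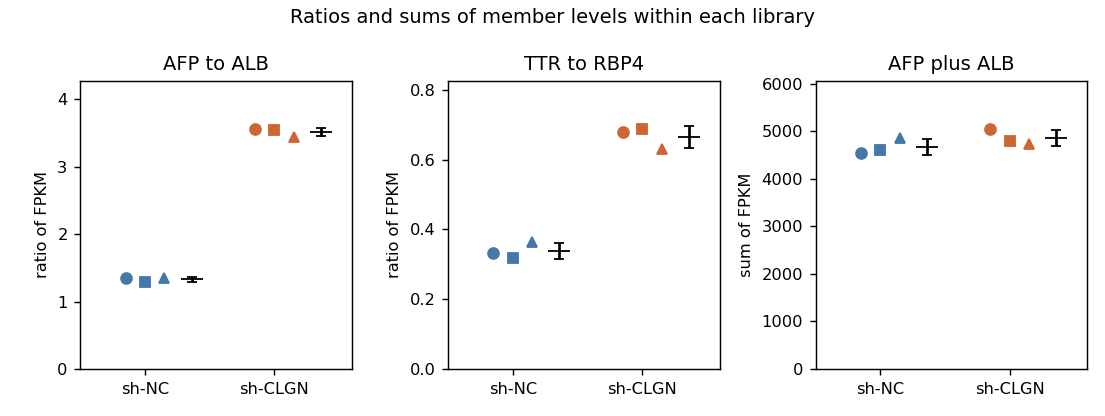
Ratio of AFP to ALB, ratio of TTR to RBP4 and sum of AFP and ALB (FPKM) in each library, with replicates 1, 2 and 3 as circle, square and triangle and the mean ± SD (n = 3) in black. The AFP to ALB ratio lies between 1.29 and 1.36 for sh-NC and between 3.44 and 3.56 for sh-CLGN, and the sums overlap.

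By FPKM the order of the 6 genes was AFP, ALB, RBP4, TTR, GC and AFM in all 6 libraries, and no neighbours in that order had overlapping ranges within a group. The length by which the authors divided decides part of it. The length given for TTR is 2395 bases, 2.50 times the 957 bases of its principal transcript in GENCODE 29, while the factor was 1.09 to 1.49 for the other genes. Per kilobase of the principal transcript, the TTR level was 456 ± 37.2 in sh-NC and 685 ± 30.3 in sh-CLGN, and the RBP4 level 596 ± 59.0 and 453 ± 9.17, on the FPKM scale. On that length TTR stood below RBP4 in sh-NC and above it in sh-CLGN, with a TTR to RBP4 ratio of 0.724 to 0.828 and 1.43 to 1.56. The ratios of FPKM between groups do not depend on the length. Differences on the log2(FPKM + 1) scale can depend on it for low genes, through the 1 added. Of the 31-base words in the transcripts of each member, 0 occurred in another member, and at most 0.165% of a member's words (TTR) occurred in any other gene. Of genes on the opposite strand, FFAR4 overlaps RBP4 and reached 0.145 FPKM at most.

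The neighbours on chromosome 4 were compared next, to show whether genes around the tandem and GC differed between the groups. The stretch from 1000000 bases before GC to 1000000 bases after AFM holds 23 other protein-coding genes, of which 16 were tested, 8 higher and 5 lower in sh-CLGN at a limma adjusted p of at most 0.05. Over all genes tested, 65.8% passed this threshold, 26.7% higher and 39.0% lower. Among the higher neighbours, NPFFR2, ADAMTS3 and SLC4A4 were under 1 FPKM in every sh-NC library. They passed the expression filter only through sh-CLGN. Their direction was thus fixed by the filter, and nothing is read from their calls. Between GC and ALB, NPFFR2, a neuropeptide receptor gene with 4 to 62 reads per library, went from 0.200 ± 0.0684 to 1.39 ± 0.290 FPKM (log2 fold change 0.99, adjusted p = 0.000232), and ADAMTS3, a gene for a procollagen protease, rose from 0.355 ± 0.0851 to 1.22 ± 0.179 FPKM (0.71). ANKRD17, the protein-coding gene next before ALB, rose by 0.32 (adjusted p = 0.00311), and COX18, which encodes an assembly factor of cytochrome oxidase, had a log2 fold change of -0.03 (adjusted p = 0.720).

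Before GC, SLC4A4, a bicarbonate transporter gene, rose by 0.76, MOB1B, which encodes a partner of the Hippo pathway kinases, by 0.45 and RUFY3 by 0.23, and GRSF1, which encodes an RNA-binding protein of mitochondria, went from 16.9 ± 0.973 to 7.56 ± 0.269 FPKM (log2 fold change -1.06). The RUFY3 call was lost under 6 other settings, among them leaving out sh-NC replicate 1 or 3 or sh-CLGN replicate 1 or 3. For DCK (deoxycytidine kinase) the log2 fold change was 0.10 (adjusted p = 0.171), and it passed as higher under 3 other scalings. Beyond AFM lies the cluster of CXC chemokine genes. CXCL6 rose from 4.45 ± 0.592 to 20.3 ± 0.838 FPKM (log2 fold change 1.97, adjusted p = 2.07e-06) and CXCL5 by 0.38, while the log2 fold change was -1.22 for CXCL1, -1.15 for CXCL2, -0.94 for CXCL3 and -0.47 for CXCL8. The CXCL5 call was lost with GC correction (log2 fold change 0.10) and the CXCL8 call with quantile normalization (-0.23). CXCL1, CXCL2 and CXCL3 are close paralogs whose reads could be shared, as are CXCL5 and CXCL6, so their separate values are uncertain. AREG, an EGFR ligand gene, had a log2 fold change of 0.02 (adjusted p = 0.789) and passed as higher under the same 3 scalings. RASSF6, the first protein-coding gene after AFM, was not tested, with 0.0616 ± 0.00876 FPKM in sh-NC and 0.392 ± 0.127 FPKM in sh-CLGN. It is named here after its values were seen.

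**Figure D3:**
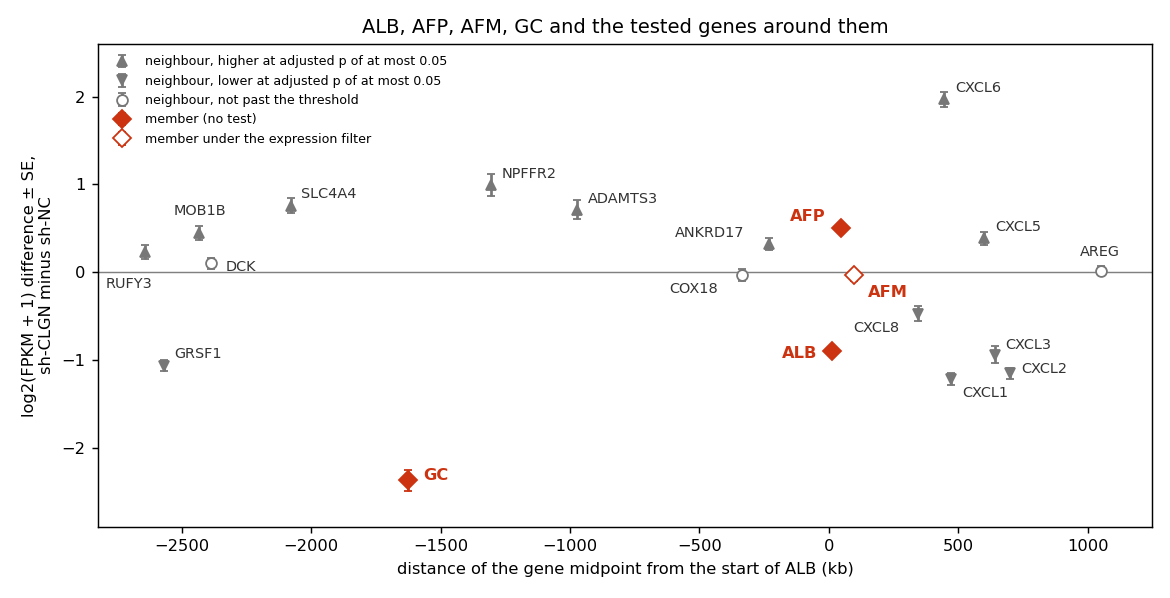
Difference in log2(FPKM + 1), sh-CLGN minus sh-NC, with its SE (vertical axis) against the distance of each gene's midpoint from the start of ALB in kilobases (horizontal axis), for members (diamonds) and tested neighbours (triangles past the threshold, open circles not). Higher and lower genes are mixed along the stretch, with GC at -2.37, ALB at -0.90 and AFP at 0.50.

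Other carriers and binding proteins of plasma made by the liver formed a list of 15 genes, of which 14 were tested. At adjusted p, 6 rose and 7 fell after depletion, and ORM2 did not pass (log2 fold change -0.07, limma adjusted p = 0.299). The shares were 42.9% higher and 50.0% lower, against 26.7% and 39.0% over all genes tested. The median log2 fold change was -0.24, against -0.08 over all genes tested. Metal and heme carriers divided. TF (transferrin, the iron carrier) fell from 181 ± 3.32 to 58.4 ± 0.483 FPKM (-1.62, SE 0.041, adjusted p = 4.15e-07), CP (ceruloplasmin, the copper protein) by 1.34 and HP (haptoglobin, which binds hemoglobin) by 1.22 on the log2 scale. HP has a near copy, HPR, with which reads could be shared, so its value is uncertain. HPX (hemopexin, the heme carrier) rose from 26.8 ± 1.94 to 47.9 ± 1.24 FPKM (0.82, SE 0.061, adjusted p = 1.88e-05). These 3 falls passed the adjusted p and an absolute log2 fold change of 1 together, as did 6.28% of all genes, 3.09% higher and 3.19% lower.

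Among carriers of hormones and vitamins, SHBG (sex hormone binding globulin) rose from 0.566 ± 0.120 to 2.13 ± 0.348 FPKM (0.99), SERPINA6 (the cortisol carrier) from 29.6 ± 0.964 to 49.4 ± 2.29 FPKM (0.72) and TCN2 (the vitamin B12 carrier) from 2.87 ± 0.650 to 3.84 ± 0.196 FPKM (0.33). SHBG was under 1 FPKM in every sh-NC library and passed the expression filter only through sh-CLGN. Its direction, and its place among the carriers that rose, was thus fixed by the filter. The TCN2 call was lost under 7 of 14 other settings, among them leaving out any 1 library other than sh-NC replicate 1. SERPINA7, the thyroxine-binding globulin, was named after its values were seen, because TTR carries the same hormone, and it fell from 3.67 ± 0.541 to 2.19 ± 0.0516 FPKM (limma adjusted p = 0.00112). AHSG (fetuin-A) rose by 0.46, while the log2 fold change was -0.85 for AMBP, the precursor of alpha-1-microglobulin and bikunin, and -0.79 for APOM, which carries sphingosine phosphate. AMBP fell from 1478 ± 102 to 816 ± 13.1 FPKM, below the ALB level in both groups.

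Transcription factors known to act on the albumin, AFP and transthyretin genes, together with regulators of AFP, made a list of 26, of which 22 were tested. At adjusted p, 3 were higher and 14 lower, that is 13.6% and 63.6% of those tested. Over all genes tested these shares were 26.7% and 39.0%. The median log2 fold change of the list was -0.46, against -0.08 over all genes tested. FOXA2, a FOXA factor, fell from 46.6 ± 3.10 to 23.2 ± 1.59 FPKM (-0.97, SE 0.069, limma adjusted p = 1.46e-05). The C/EBP factor gene CEBPA fell from 101 ± 8.95 to 57.5 ± 1.92 FPKM (-0.79), CEBPD from 56.9 ± 6.51 to 27.3 ± 1.15 FPKM (-1.03) and NFIX from 5.07 ± 0.662 to 2.42 ± 0.243 FPKM (-0.83). NR2F1, an orphan nuclear receptor gene, rose by 0.62, ONECUT2 by 0.60 and TEF, which encodes a bZIP factor, by 0.39. ZHX2, a repressor of AFP named after its values were seen, fell from 19.8 ± 0.841 to 14.1 ± 0.437 FPKM (limma adjusted p = 0.000157). ZBTB20, another repressor of AFP and likewise outside the rule for named genes, was under the expression filter, at 0.331 ± 0.0892 and 0.582 ± 0.0657 FPKM. FOXA2 and CEBPA were thus lower together with ALB and GC while AFP and TTR were higher, and the part of the factors in these differences was not tested.

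Receptors of these carriers and genes that handle their ligands made a list of 41, of which 23 were tested, 8 higher and 8 lower at adjusted p. The share called was 69.6%, near the 65.8% over all genes tested, so nothing is read from the count. The median log2 fold change was -0.11, against -0.08 over all genes tested. In the retinoid pathway ALDH1A1, a retinaldehyde dehydrogenase, rose from 444 ± 18.6 to 642 ± 12.6 FPKM (0.53, SE 0.051, limma adjusted p = 6.30e-05) and RARB, a retinoic acid receptor gene, by 0.58. The log2 fold change was -0.87 for RDH11, a retinal reductase gene, -0.84 for CYP26B1, which encodes a retinoic acid hydroxylase, -0.67 for DGAT1, whose enzyme makes triglycerides and retinyl esters, -0.60 for DHRS3, another retinal reductase gene, and -0.49 for RDH10, which oxidizes retinol. CYP2R1, the vitamin D 25-hydroxylase, rose by 0.64, THRB, a thyroid hormone receptor gene, by 0.61 and DAB2, an adaptor for the endocytosis of megalin, by 0.82. STRA6, the cell surface receptor of RBP4, had 0 reads in every library. With the GC trend removed, 13 genes of this list were higher.

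**Figure D4:**
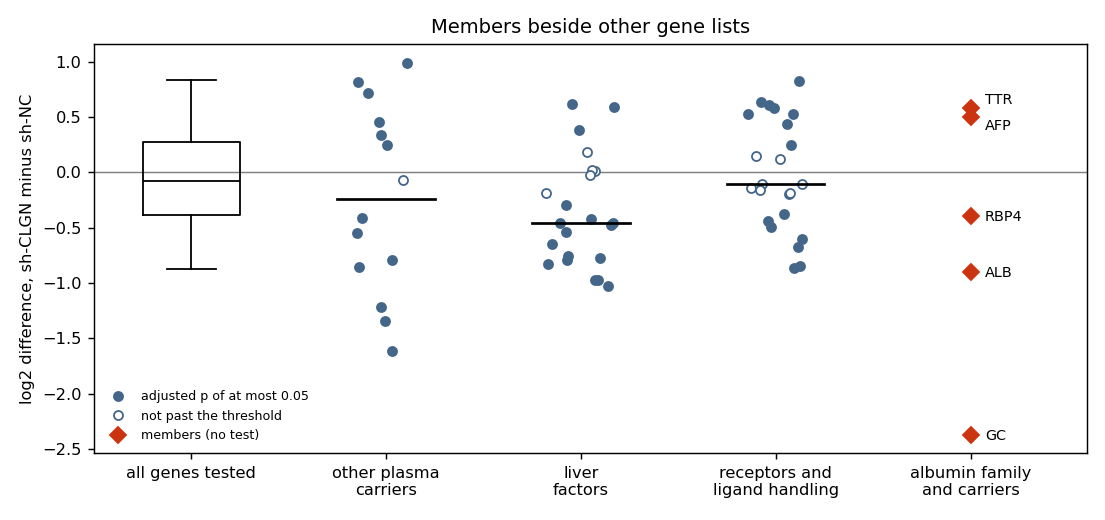
Difference in log2(FPKM + 1), sh-CLGN minus sh-NC, for all genes tested (box from the lower to the upper quartile with the median, whiskers at the 5th and 95th percentiles), for the tested genes of the lists (circles, filled past the threshold, with a bar at the median) and for ALB, AFP, GC, TTR and RBP4 (diamonds, no test). The liver factor median lies at -0.46, and the diamonds range from -2.37 for GC to 0.58 for TTR.

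For each gene above the filter, the 2 protein-coding genes with the most similar profile were found by the root mean square difference of log2(FPKM + 1), centred on the mean of the 6 libraries. For ALB these were PDE6D (0.0190), which encodes a chaperone of prenylated proteins, and VLDLR (0.0253), a lipoprotein receptor gene. Their levels were 5.20 ± 0.192 and 4.05 ± 0.202 FPKM in sh-NC and 2.30 ± 0.0854 and 1.69 ± 0.0498 FPKM in sh-CLGN. The 1 added to FPKM pulls such low values toward 0, so this likeness depends on the scale. With 0.1 added in its place, the difference was -1.14 for PDE6D and -0.90 for ALB. For AFP they were SEC11A (0.0221), which encodes a catalytic subunit of the signal peptidase, and ALDH1A1 (0.0228). GC had no gene as close as those of the other members, and its nearest were CMTM6 (0.0930), whose protein stabilizes PD-L1, and FGF19 (0.112), a hormone gene of bile acid control, which fell by 2.31 and 2.28 on the log2 scale. TTR was followed by CCDC58 (0.0259) and FAM151A (0.0319), and RBP4 by PPP4C (0.0129), a phosphatase gene, and COG7 (0.0194), which encodes a Golgi tethering subunit. Over 6 libraries in 2 groups this likeness mostly reflects a similar difference between the groups.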

How the data were processed

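The authors deposited 1 table of FPKM values, fragment counts scaled to gene length and library size, for 58735 genes in 6 Hep-G2 libraries. The submitters' processing notes name HISAT2 2.0.5, featureCounts and GRCh38, without roles. Whether counting used strand is not given in the sources used here. Columns were matched to samples by name, KD standing for sh-CLGN. FPKM times gene length fell on whole reads for 100% of values, within 0.01 of a read, so reads per gene were recovered (14955816 to 16244639 per library).

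The comparison used limma 3.58.1 (R 4.3.3, eBayes with an intensity trend) on log2(FPKM + 1) over all 6 libraries, for the 13074 genes that reached 1 FPKM in 3 or more libraries. A fold change on this scale understates the change of low genes. Two-sided p-values were adjusted over all these genes by the Benjamini-Hochberg method, and calls needed an adjusted p of 0.05 or less, where stated also an absolute log2 fold change of 1. The procedure was run on simulated data in which few genes changed, unlike these data, so that run does not bear on the share of genes called here. Lists are described by counts and medians. The text names all members, up to 5 higher and 5 lower called genes per list with the largest change, tested neighbours on chromosome 4, and the 2 genes most like each member, and 1 item is not reported here. Members, lists and tests were chosen with earlier results of these data known. Alternatives were a pseudocount of 0.1, no filter, TPM, read-total and quantile scaling, voom on recovered reads, a replicate block and leaving out each library, and 2 chosen after seeing the data, a GC correction (GENCODE 29 transcripts, lowess span 0.3) and principal transcript lengths. Promoter windows and transcripts were searched in Python 3.11.15 (pandas 2.3.3, numpy 2.4.6), and plots were drawn with matplotlib 3.10.9.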

Additional observations from a re-analysis of the deposited data

How the results depend on the processing

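ALB and GC stayed lower and AFP and TTR higher in sh-CLGN under each of the 12 alternatives run for these genes, and the sizes followed the scaling. Voom and the run without a filter were used for calls over all genes and gave no member values. With TPM the log2 differences were -0.77 for ALB, 0.63 for AFP, 0.71 for TTR and -0.26 for RBP4. With read totals they were -0.70 for ALB, 0.70 for AFP, -2.19 for GC, 0.78 for TTR and -0.19 for RBP4. The median over all genes moved by 0.11 with TPM, by 0.16 with read totals and by 0.11 without a filter. Quantile normalization gave -1.10 for ALB, 0.28 for AFP, -2.18 for GC, 0.89 for TTR and -0.035 for RBP4. GC correction gave -1.04 for ALB, 0.37 for AFP and -0.19 for RBP4, and moved the TTR to RBP4 log2 ratio difference from 0.97 to 0.83. AFM went from -0.03 to -0.13 with a pseudocount of 0.1, and from -0.08 to 0.01 when 1 library was left out. Quantile normalization gives each place in the order of levels a fixed value, and AFP held place 8 in each sh-NC library and place 7 in each sh-CLGN library. Its value was therefore 11.4 in every sh-NC library and 11.7 in every sh-CLGN library, and its 0.28 is the step between these places. ALB held place 21 in each sh-CLGN library and had the value 10.1 in each. In sh-NC it held places 9 to 11, with values of 11.0 to 11.2, so its -1.10 is likewise a step between places. For the other shifts with quantile normalization, and for those with GC correction, the cause was not tested.

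Genes past both thresholds numbered 404 higher and 417 lower, 49.2% higher. They numbered 925 and 681 with a pseudocount of 0.1 and 989 and 733 with voom. TPM gave 1002 higher (70.3% of its calls), read totals 235 lower (72.0% higher) and GC correction 244 lower (66.2% higher). TPM values were larger than FPKM, with ALB in sh-NC at 12.6 to 12.8 against 10.9 to 11.0 on the log2 scale. The same 1 added before the log2 therefore weighed less with TPM, and its part in the 1002 was not tested. Higher liver factors numbered 5 with read totals, and higher receptor and ligand genes 13 with GC correction. Leaving out a library gave -0.92 to -0.87 for ALB, 0.47 to 0.53 for AFP, -2.45 to -2.27 for GC, 0.53 to 0.65 for TTR and -0.45 to -0.31 for RBP4.

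Replicate numbers did not pair the libraries (correlations of deviations -0.02, -0.05 and -0.15). With a replicate block 8038 genes passed adjusted p, against 8598, and the list counts moved by at most 1. Of 51 called genes under the naming rule, 45 kept call and direction under all 14 settings and none reversed. Calls were lost for RUFY3 under 6 settings, the block included, for TCN2 under 7, for PPP4C under 2 and for CXCL5, CXCL8 and COG7 under 1 each. Of the 3 such genes without a call, DCK and AREG gained one under TPM, read totals and quantile normalization. Depth limits AFM, at 6 to 11 reads per library.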
